A study of Homo sapiens with 6 samples.

Results

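The genes described here encode the enzymes that write 5-methylcytosine (m5C) into RNA and the proteins that read it: the writers NOP2 (also called NSUN1), NSUN2, NSUN3, NSUN4, NSUN5, NSUN6, NSUN7 and TRDMT1 (also called DNMT2), and the readers ALYREF and YBX1. They were taken by name from the deposited tables, which hold 60835 distinct gene names, and all 10 were found. m5C is cytosine with a methyl group on carbon 5 of its ring. The NSUN enzymes and TRDMT1 transfer this group from S-adenosylmethionine. Each works on its own RNAs: cytosolic tRNAs, mitochondrial tRNA and rRNA, or cytosolic rRNA, with NSUN2 and NSUN6 acting on mRNAs as well. ALYREF, an adaptor for the export of mRNA from the nucleus, and YBX1, a cold-shock domain protein that packages and stabilises mRNA, bind RNA that carries the mark.

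Total RNA of the human ovarian cancer line HEY, an established line, was sequenced in 3 libraries with a control siRNA (siNC) and 3 with an siRNA against CCNL2 (siCCNL2). CCNL2 encodes cyclin L2, a nuclear cyclin that partners CDK11 kinases and takes part in splicing. Groups follow the genotype label. The treatment text gives 48 h with the CCNL2 siRNA for every library in the same words, so that time is assumed for the controls. The series title names 5-methylcytosine as a regulator of CCNL2, while the libraries measure RNA after CCNL2 itself was lowered, so the comparison asks how the writers and readers of the mark stood in that state. These are mRNA levels of 1 cell line: neither m5C nor any protein was measured. Nothing in the labels says whether replicates came from separate cultures, so p-values reflect only how these libraries vary, and that variation may be technical. In a bulk culture, fewer cells that make an mRNA and less of it per cell cannot be told apart.

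Total counts ran from 13596286 to 18095529 per library. Levels are given in CPM, the read count scaled to the size of the library with TMM factors, and were compared with edgeR's quasi-likelihood test, a gene being called where its Benjamini-Hochberg adjusted p over the 15346 genes tested was under 0.05. CCNL2 itself read 261, 268 and 246 CPM in the siNC libraries and 203, 182 and 186 CPM in the siCCNL2 libraries, without overlap. Its log2 fold change was -0.44 (SE 0.044, adjusted p = 2.15e-08), a reduction of 26% that left most of its mRNA in place. Of 8 ovarian carcinoma markers 7 were tested. KRT7, KRT8, KRT18, PAX8 and WT1 were called lower, 71.4% of those tested, against 16.5% of all genes tested. WT1 was not called without siCCNL2 replicate 1 (adjusted p = 0.0980). EPCAM (1.84 to 2.72 CPM in the mean, adjusted p = 0.0856) and SOX17 (5.76 to 7.40 CPM, adjusted p = 0.0513) were not called. Both were higher in every siCCNL2 library than in any siNC library. MUC16 was nearly undetected. The summed level of the 8 markers, most of it from KRT7, KRT8 and KRT18, was 2168 to 2243 CPM in siNC and 1656 to 1807 CPM in siCCNL2. Of 6 markers of other cell types, PTPRC, CD3E, LYZ and ALB stood under 1 CPM in every library, with CD3E and ALB at 0 in all siNC libraries. The endothelial markers CDH5 (114 to 47.2 CPM in the mean) and PECAM1 (2.39 to 0.915 CPM) were called lower, and the list's sum ran from 114 to 120 CPM in siNC and from 45.7 to 54.3 CPM in siCCNL2. The part of these differences in the results on the m5C genes was not tested.

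In the siCCNL2 libraries TRDMT1 and NSUN3 were lower, and the reader ALYREF was higher on average but not in every library. The NSUN3 call was lost in 8 and the ALYREF call in 5 of 17 alternative settings. The other 7 genes were not called, among them NSUN2 and YBX1, the most highly expressed writer and reader. All 10 passed the filter on low counts. The 3 calls are 30% of the set, against 33.6% of all genes tested, of which 17.2% were called higher and 16.5% lower. The share of calls in the set was thus near that of the whole table. The median log2 fold change over the 10 genes was -0.0015 beside 0.0023 over all genes tested. The median size of the change, without its sign, was 0.22 beside 0.19. TRDMT1, NSUN3 and NSUN4 had groups that did not overlap in CPM, 3 of 10 genes, while 43.9% of all genes tested had such groups. All 8 writers together had 2 calls, both lower.

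**Figure D1:**
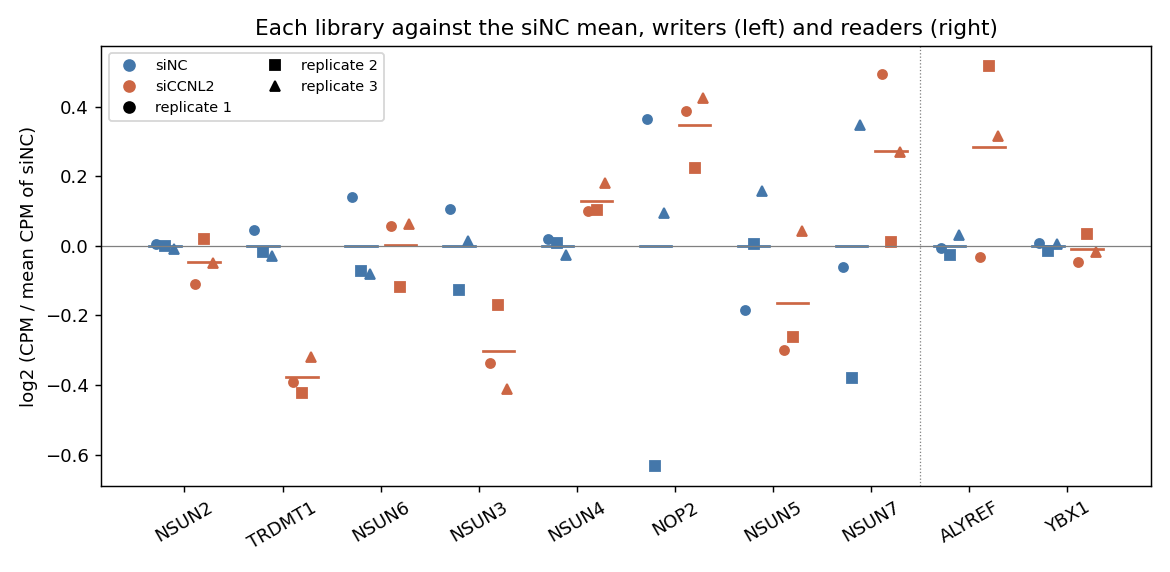
Each point is the CPM of a library as log2 over the siNC mean of that gene, blue for siNC and red for siCCNL2, with the replicate by symbol and a bar at the group mean. The siCCNL2 points of TRDMT1 lie below all siNC points, those of ALYREF spread from below the siNC points to well above them, and NOP2 and NSUN7 vary most within siNC.

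TRDMT1 showed the clearest difference. This enzyme has the fold of a DNA methyltransferase but methylates the anticodon loop of a few tRNAs, aspartate tRNA among them. Its level was 43.5, 41.6 and 41.3 CPM in the siNC libraries and 32.1, 31.4 and 33.7 CPM in the siCCNL2 libraries. Every siCCNL2 library was below every siNC library, with a gap several times the spread inside either group. The mean fell from 42.1 ± 1.19 to 32.4 ± 1.19 CPM (SD, n = 3 each), a decrease of 23.0%. The log2 fold change was -0.38 (SE 0.063, 95% interval -0.51 to -0.25), with an adjusted p of 4.46e-05 by edgeR's quasi-likelihood test. An exact two-sided permutation test of the 6 CPM values gave p = 0.1, the smallest that 3 against 3 libraries allow. TRDMT1 was called in all 17 alternative settings, including those that left out any 1 library, with log2 fold changes from -0.40 to -0.35 and adjusted p up to 0.0248. No exon of TRDMT1 in GENCODE 29 is shared with another gene. The span in the deposited table reaches further, from 17137336 rather than 17142254. That added part holds AC067747.1, on the same strand with 0 counts in every library, and its exon sharing was not examined.

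Because TRDMT1 carries the clearest result, a stretch of its promoter is shown. RefSeq gave a promoter window, 250 bases before the start to a little after it, for 9 of the 10 genes. Stretches printed here are the longest parts upstream of the start that lie in no UTR annotated by GENCODE 29, and they run 5′ to 3′. The TRDMT1 stretch is chr10:17201852-17201922 on the minus strand of GRCh38.p14, from base 250 to base 180 before the RefSeq start. It lies inside the span the deposited table gives for the gene, in the first exon of a longer transcript annotated without a coding sequence. Capitals mark matches, on either strand, to any of the motifs GGGCGG (the GC box), CCAAT (the box of that name), CCGGAA (the core bound by ETS factors) and TGACG (part of the cyclic AMP response element), none of which overlapped another match.
TRDMT1: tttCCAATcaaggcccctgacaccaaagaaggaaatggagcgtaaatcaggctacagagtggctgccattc
It held 1 match, to CCAAT, which 8.81% of 35116 RefSeq promoters hold in the same 71 positions. The stretch had 49.3% G and C. A match to these letters is a description and was not linked to the level of the gene.

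NSUN3 works in mitochondria, where it methylates the wobble cytosine of methionine tRNA, the first step towards the formylcytosine found there. It read 17.7, 15.04 and 16.6 CPM in siNC and 13.0, 14.6 and 12.3 CPM in siCCNL2. All siCCNL2 libraries were below all siNC libraries, but siCCNL2 replicate 2 was only just under siNC replicate 2. The mean fell by 18.9%, with a log2 fold change of -0.31 (SE 0.10, 95% interval -0.52 to -0.10) and an adjusted p of 0.0225 in edgeR's quasi-likelihood test. This call was lost in 8 of 17 alternatives, with log2 fold changes from -0.37 to -0.25 over all of them. Adjusted p values were 0.0541 in the DESeq2 Wald test, 0.116 without siNC replicate 1, 0.0529 without siNC replicate 3, 0.0615 without siCCNL2 replicate 1 and 0.108 without siCCNL2 replicate 3. Counts for NSUN3 ran from 194 to 299 per library, and 8.52% of its exonic bases lie opposite exons of RBBP4P2 and of DHFR2. RBBP4P2 had at most 5 counts in any library. Whether strand was used in counting is not given in the sources used here.

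NSUN4, the other mitochondrial member, methylates the small mitochondrial rRNA and, together with MTERF4, helps to assemble the mitochondrial ribosome. Its values were 49.6, 49.2 and 48.0 CPM in siNC and 52.5, 52.6 and 55.5 CPM in siCCNL2, without overlap. The difference was small, a log2 fold change of 0.13 (SE 0.056, 95% interval 0.01 to 0.24), and it was not called (adjusted p = 0.0796). None of the 17 alternatives called it, with adjusted p from 0.0695 to 0.251. MTERF4 stood at 28.4 CPM in siNC and 28.0 CPM in siCCNL2 in the mean and was not called (log2 fold change -0.01, adjusted p = 0.910). On the per-length scale introduced with the order of levels, NSUN4 was 4.16 to 4.84 times NSUN3 in the siNC libraries and 5.32 to 6.65 times NSUN3 in the siCCNL2 libraries. The groups did not overlap in this ratio, which was not tested.

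The mitochondrial rRNA that NSUN4 methylates, MT-RNR1, read 1726, 1661 and 2280 CPM in siNC and 2283, 2357 and 2133 CPM in siCCNL2. siNC replicate 3 was as high as the siCCNL2 libraries, so the groups overlapped. The edgeR fit called it higher (log2 fold change 0.26, SE 0.069, adjusted p = 0.00493), but the exact permutation test gave p = 0.2. The call was lost in 4 of 17 alternatives, among them leaving out siNC replicate 2 (0.17, adjusted p = 0.0795), and without siNC replicate 3 the value was 0.42. The other substrate RNAs looked up did not pass the filter: the mitochondrial methionine tRNA MT-TM and the vault RNA VTRNA1-2 stayed under 1 CPM, and VTRNA1-1 and VTRNA1-3 had 0 counts in all 6 libraries. By their coordinates these are short RNAs, and whether the libraries retained RNAs of that size was not tested. Their low counts therefore do not show that they were absent from the cells.

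NSUN2 is the writer with the broadest range, covering many cytosolic tRNAs, vault RNAs and sites in mRNAs. It read 201, 200 and 199 CPM in siNC and 186, 203 and 194 CPM in siCCNL2. The siCCNL2 libraries lay on both sides of the tight siNC values. NSUN2 was not called (log2 fold change -0.05, SE 0.040, adjusted p = 0.411), and the 95% interval corresponds to a fold between 0.914 and 1.03. On the per-length scale the siCCNL2 libraries (163, 170 and 167) were just below the siNC libraries (175, 174 and 170), with an exact permutation p of 0.1. A decrease as large as the mean decrease of TRDMT1 lies outside this interval.

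NSUN6, which methylates the acceptor end of cysteine and threonine tRNAs and a set of mRNAs, read 7.32, 6.32 and 6.28 CPM in siNC and 6.91, 6.11 and 6.94 CPM in siCCNL2. The groups overlapped fully and NSUN6 was not called (log2 fold change 0.01, SE 0.14, adjusted p = 0.978). Its sign turned in 7 of 17 alternatives. With 82 to 126 counts per library the 95% interval, a fold of 0.818 to 1.23, includes a change as large as the mean increase of ALYREF.

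**Figure D2:**
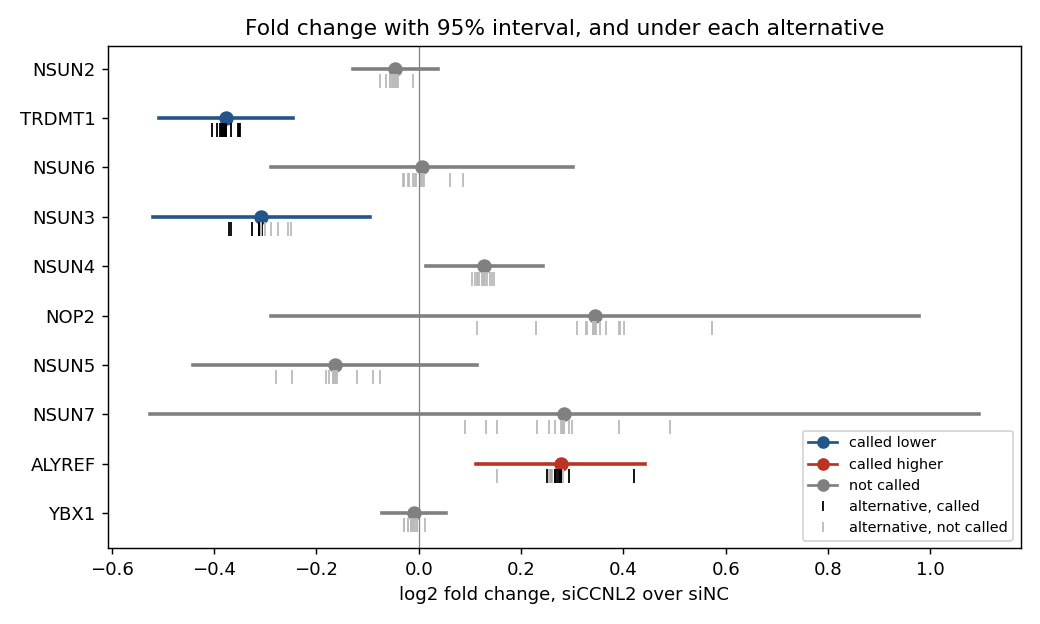
Log2 fold change of each gene, siCCNL2 over siNC, with its 95% interval (point and bar) and, under it, a tick for each alternative setting, dark where the gene was called. All TRDMT1 ticks are dark, NSUN3 and ALYREF have ticks of both kinds, and the intervals of NOP2 and NSUN7 are the widest.

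NOP2 and NSUN5 write to cytosolic rRNA. NOP2, a nucleolar protein that methylates the large rRNA and is needed for its processing, had 32, 15 and 25 counts in siNC and 35, 23 and 31 counts in siCCNL2. These correspond to 1.89, 0.948 and 1.57 CPM against 1.92, 1.72 and 1.97 CPM, so that siNC replicate 1 lay among the siCCNL2 libraries. NOP2 was not called (log2 fold change 0.34, SE 0.31, 95% interval -0.29 to 0.98, adjusted p = 0.422). In GENCODE 29, 2550 of its 4687 exonic bases, or 54.4%, are also exons of AC006064.6 on the same strand. The deposited table has no such name, and how the authors treated reads from those bases was stated in no source used here, which makes these counts of NOP2 uncertain. CHD4, the next gene upstream on that strand, does not overlap it and stood at 13.3 CPM in siNC and 11.3 CPM in siCCNL2 in the mean (not called, adjusted p = 0.105).

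NSUN5, which methylates another site of the large rRNA, read 8.27, 9.41 and 10.5 CPM in siNC and 7.63, 7.83 and 9.67 CPM in siCCNL2. The groups overlapped and NSUN5 was not called (log2 fold change -0.16, SE 0.13, 95% interval -0.44 to 0.11, adjusted p = 0.380). The pseudogene copies NSUN5P1 and NSUN5P2 drew counts in the same libraries, in the siNC mean 93.0% and 25.4% of the NSUN5 count, and reads of these near-identical copies may be divided between them. NSUN5P1 was not called (-0.25, adjusted p = 0.222). NSUN5P2 read 2.36, 2.21 and 2.57 CPM in siNC and 1.54, 1.27 and 0.700 CPM in siCCNL2 and was called lower (-1.01, adjusted p = 0.0123). Without siCCNL2 replicate 3 its adjusted p was 0.0770 and its log2 fold change -0.75.

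NSUN7 is the least studied of the family and is best known for its need in sperm motility. It had 12, 9 and 15 counts in siNC and 19, 10 and 14 counts in siCCNL2, under or near 1 CPM in each library. At that depth the estimate was imprecise. NSUN7 was not called (adjusted p = 0.623), and the 95% interval around its log2 fold change of 0.28 ran from -0.53 to 1.10. The last 1158 bases of its span overlap APBB2 on the opposite strand. APBB2 stood at 71.3 CPM in siNC and 76.8 CPM in siCCNL2 in the mean and was not called (log2 fold change 0.11, adjusted p = 0.102).

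Among the readers ALYREF was called and YBX1 was not. ALYREF read 96.7, 95.5 and 99.2 CPM in siNC and 95.01, 139 and 121 CPM in siCCNL2. siCCNL2 replicate 1 was below every control, while replicates 2 and 3 were above all of them. The mean rose by 21.8%, from 97.1 ± 1.91 to 118 ± 22.1 CPM (SD, n = 3 each), with a spread more than 10 times wider in siCCNL2 than in siNC. edgeR's quasi-likelihood test gave a log2 fold change of 0.28 (SE 0.080, 95% interval 0.11 to 0.44) and an adjusted p of 0.00867, the exact permutation test a p of 0.4. The call was lost in 5 of 17 alternatives: the DESeq2 Wald test (adjusted p = 0.172), both fits on the log2 per-length scale (0.0993 and 0.0984), and the fits without siCCNL2 replicate 2 (log2 fold change 0.15, adjusted p = 0.0972) or without siCCNL2 replicate 3 (0.0563). Without siCCNL2 replicate 1 the log2 fold change was 0.42 (adjusted p = 6.08e-07). The direction was the same in all 17.

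YBX1 was the most abundant gene of the set, with 1538, 1515 and 1537 CPM in siNC and 1483, 1567 and 1511 CPM in siCCNL2. The siCCNL2 values surrounded the siNC values. Its log2 fold change was -0.01 (SE 0.030, adjusted p = 0.845), and the 95% interval corresponds to a fold of 0.952 to 1.04, the narrowest of the 10. On the per-length scale the siCCNL2 libraries (1552, 1567 and 1555) were slightly below those of siNC (1597, 1571 and 1571). The processed pseudogene YBX1P1 had 1.2% as many counts as YBX1 and was not called (log2 fold change -0.05, adjusted p = 0.747). YBX1P2, YBX1P4 and YBX1P10 each had under 1% as many. The overlapping genes not described elsewhere had few counts: at most 13 in any library for LINC01018 (at NSUN2) and 7 for AL450384.2 (at NSUN6), and 0 for ARL4AP2 (in NSUN7) and AC067747.1 (in TRDMT1).

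Levels of different genes were compared only on the deposited TPM-like scale, which divides by gene length. In the siNC mean the order was YBX1 (1580), ALYREF (272), NSUN2 (173), NSUN4 (34.6), NSUN5 (12.4), TRDMT1 (10.0), NSUN6 (9.43), NSUN3 (7.85), NOP2 (1.49) and NSUN7 (0.470). TRDMT1 and NSUN6 overlapped in siNC and are not ordered there, while every other pair of neighbours in this order was separate in all 3 siNC libraries. In siCCNL2 the order was the same except that NSUN6 (9.39 in the mean) stood above TRDMT1 (7.67), and all neighbours in that order were separate, NSUN6 and TRDMT1 included, though NSUN5 (lowest 9.982) and NSUN6 (highest 9.949) nearly touched. On this scale NSUN2 thus made up most of the writer mRNA counted. Its share of the sum of the 8 writers was 69.2% to 69.9% in siNC and 68.1% to 70.7% in siCCNL2. The sum takes in the uncertain counts of NOP2, and those of NSUN5, whose reads may be divided with its pseudogene copies. The places of NOP2 and NSUN5 in the order carry the same limit. That sum was 246 to 253 in siNC and 237 to 245 in siCCNL2. TRDMT1 made up 3.95% to 4.12% of the sum in siNC and 3.01% to 3.27% in siCCNL2. NSUN2 exceeded TRDMT1 16.8 to 17.5 times in siNC and 20.8 to 23.5 times in siCCNL2. The place, share and ratio of TRDMT1 depend on the gene lengths behind the score, which are not given in the sources used here. In CPM, which does not divide by length, the siNC means were 200 for NSUN2 and 42.1 for TRDMT1. Between the readers, ALYREF was 17.1%, 17.1% and 17.5% of YBX1 in siNC and 17.4%, 24.1% and 21.7% in siCCNL2, so replicate 1 kept the ratio of the controls. These shares restate the levels above and were not tested.

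**Figure D3:**
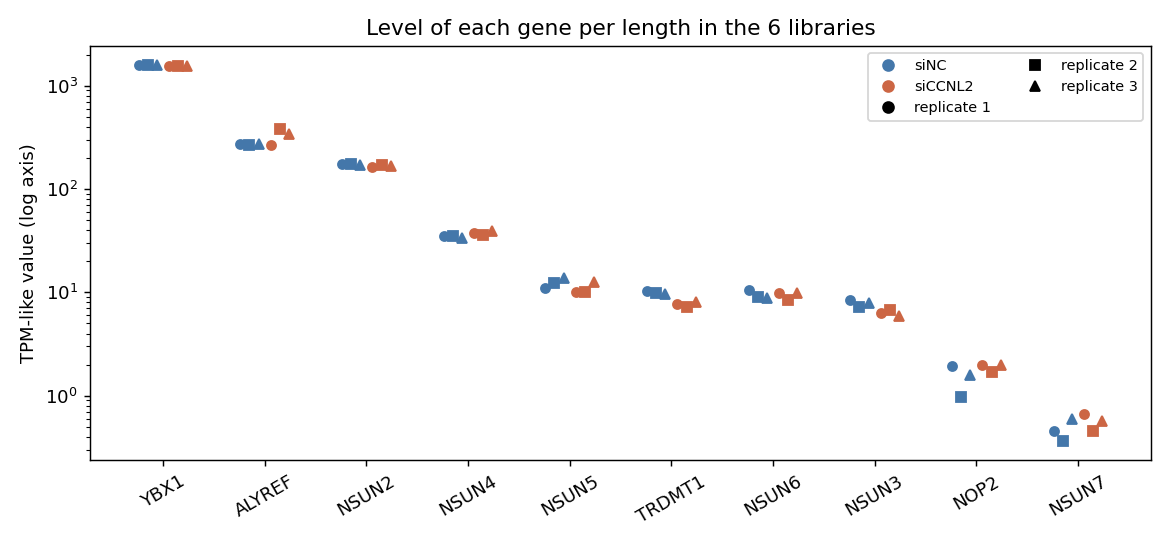
TPM-like value of each gene in the 6 libraries on a log axis, ordered by the siNC mean. The 10 genes span from YBX1 near 1580 to NSUN7 near 0.470, and TRDMT1 overlaps NSUN6 in siNC and lies below it in siCCNL2.

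TET enzymes, known for oxidising 5-methylcytosine in DNA, can also oxidise it in RNA, as can ALKBH1 on tRNA. Of these 4 genes 2 were lower, 1 higher and 1 not called. TET1 read 7.86, 8.09 and 9.16 CPM in siNC and 3.62, 4.92 and 4.96 CPM in siCCNL2 (log2 fold change -0.91, SE 0.16, adjusted p = 7.00e-05). TET2, at 46.8 and 33.5 CPM in the group means, was lower as well (-0.48, SE 0.066, adjusted p = 2.93e-06). Neither had overlapping groups, and both were called in all 17 alternatives, with TET1 at -0.60 on log2 of the per-length value plus 1, where low values are compressed. TET3 was called higher by a small margin (68.3 to 75.7 CPM, 0.15, adjusted p = 0.0269), a call lost in 8 of 17 alternatives, among them without siNC replicate 2 (0.132) and without siCCNL2 replicate 1 (0.0841). ALKBH1 was not called (0.07, adjusted p = 0.621).

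Of 6 further proteins reported to bind m5C, 5 were tested and 1 was called. YTHDF2, better known as a reader of N6-methyladenosine (m6A) that promotes decay of mRNA, read 74.0, 76.0 and 78.1 CPM in siNC and 85.9, 89.0 and 93.2 CPM in siCCNL2, without overlap (0.23, SE 0.050, adjusted p = 6.74e-04, called in all 17 alternatives). YBX3, a close relative of YBX1, stood at 705 and 667 CPM in the group means (-0.08, adjusted p = 0.0807). SRSF2 (0.05), FMR1 (-0.06) and RAD52 (0.12) were not called, with adjusted p from 0.252 to 0.428. YBX2, the germ-cell relative of YBX1, had no counts in siNC.

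ALYREF acts within the TREX complex, which couples transcription and splicing to export. Of 15 TREX and export genes 13 were tested: 3 were higher, 3 lower and 7 not called, with a median log2 fold change of -0.0034. THOC7, a subunit of the THO core, rose from 47.9 to 60.4 CPM in the mean (0.34, SE 0.056, adjusted p = 3.94e-05). DDX39A rose (0.23, adjusted p = 2.75e-04) while its paralogue DDX39B, the helicase that loads ALYREF onto mRNA, fell (-0.24, adjusted p = 0.00182, lost on the log2 per-length scale at 0.0535 and 0.0534). THOC2, the scaffold of the THO core, fell with overlapping groups (-0.24, adjusted p = 0.00156, lost on the log2 per-length scale at 0.0593 and 0.0591). THOC5 (0.18, adjusted p = 0.0371, lost in 9 of 17 alternatives) and CHTOP (-0.21, adjusted p = 0.00212) are named after their values were seen, to complete the counts. For THOC5 the adjusted p was 0.221 without siNC replicate 1, 0.0720 without siNC replicate 2, 0.111 without siCCNL2 replicate 2 and 0.172 without siCCNL2 replicate 3. The export receptor NXF1 (-0.03) and its partner NXT1 (0.14) were not called, so no single direction ran through the partners of ALYREF.

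The other RNA methylation lists gave the context. Of 19 m6A writers, erasers and readers, all tested, 5 were higher, 3 lower and 11 not called. RBM15B, an adaptor of the m6A writer complex, rose from 56.9 to 90.7 CPM (0.67, SE 0.055, adjusted p = 8.01e-10), and the eraser FTO rose (0.29, adjusted p = 8.55e-04, lost on the log2 per-length scale at 0.0736 and 0.0691). YTHDF3 (-0.19, adjusted p = 4.17e-04) and IGF2BP2 (-0.14, adjusted p = 0.00202) fell. The other calls in this list, chosen for naming after their values were seen, were YTHDF1 (0.22) and METTL16 (0.19) higher beside YTHDF2, and METTL3, the catalytic subunit of the complex, lower (-0.14, adjusted p = 0.0488, lost in 8 of 17 alternatives). Without siNC replicates 1, 2 or 3 the adjusted p of METTL3 was 0.106, 0.161 or 0.0553, and without siCCNL2 replicates 1 or 3 it was 0.0912 or 0.231.

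Of 21 other tRNA methyltransferases, all tested, 17 were not called, 2 were higher and 2 lower. TRMT10A, a guanosine methyltransferase, rose from 4.48 to 7.15 CPM (0.68, SE 0.17, adjusted p = 0.00266), and TRMT2B rose (0.23, adjusted p = 0.0105, and 0.0591 without siNC replicate 2). METTL1, which writes 7-methylguanosine, fell (-0.30, adjusted p = 0.00945), as did FTSJ1, a ribose methyltransferase (-0.21, adjusted p = 0.00688). Of 12 other rRNA methyltransferases 11 were tested and 1 was called: BUD23, which methylates a guanosine of the small rRNA, fell from 59.6 to 41.7 CPM (-0.52, SE 0.057, adjusted p = 1.03e-07). Over all context lists 74 of 82 genes were tested, 12 called higher and 11 lower, or 31.1%, near the share among all genes. YTHDF2 stands in 2 of these lists and is counted once in this total.

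Several of the genes start head to head with a neighbour, and the neighbours were looked up after values had been seen. The spans of NSUN3 and DHFR2, a dihydrofolate reductase of mitochondria, overlap by 410 bases at their starts. Where exons of both lie in that overlap, reads can be assigned to a gene only by strand. DHFR2 read 5.73, 6.76 and 5.77 CPM in siNC and 9.44, 9.25 and 9.61 CPM in siCCNL2, the direction opposite to that of NSUN3. Its log2 fold change was 0.63 (SE 0.13, adjusted p = 5.42e-04), and it was called higher in all 17 alternatives. The start of SRD5A1, a steroid reductase, lies 135 bases from that of NSUN2. SRD5A1 rose from 21.9 to 28.3 CPM without overlap (0.36, SE 0.081, adjusted p = 0.00107), while NSUN2 was not called. ANAPC11, a subunit of the anaphase-promoting complex, overlaps the 5′ part of ALYREF by 797 bases and was not called (-0.09, adjusted p = 0.320). siCCNL2 replicate 2 was the highest of its group for both genes of that pair. A test of the difference between the genes of a pair was not made.

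**Figure D4:**
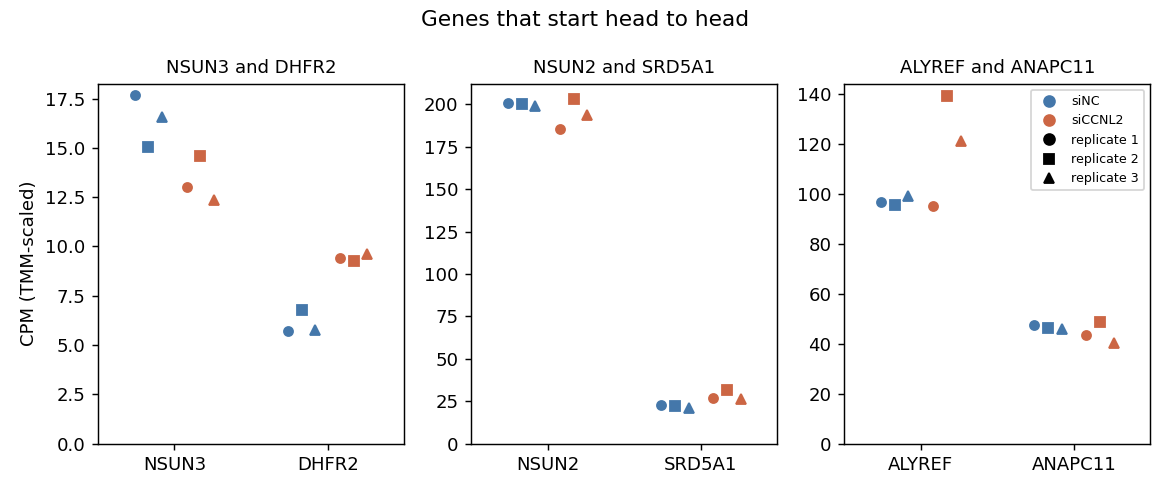
CPM of 3 genes of the set and of the neighbour that starts next to each, by library, with axes from 0. DHFR2 and SRD5A1 lie higher in every siCCNL2 library than in any siNC library, and the ANAPC11 groups overlap.

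For 2 pairs, stretches next to the starts are shown, chosen because 1 gene of each pair was called and the other was not. They lie outside annotated UTRs, between the starts for NSUN2 and SRD5A1 and inside the span of ANAPC11 for ALYREF, and come from the same RefSeq windows with the same 4 motifs in capitals. Their positions are chr17:81891587-81891646 (minus strand, the 60 bases before the start of ALYREF) and chr5:6633292-6633342 (plus strand, bases 148 to 98 before the start of SRD5A1).
ALYREF-ANAPC11: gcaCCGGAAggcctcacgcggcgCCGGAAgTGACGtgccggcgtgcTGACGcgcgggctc
SRD5A1-NSUN2: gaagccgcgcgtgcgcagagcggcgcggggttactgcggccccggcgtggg
The ALYREF stretch held CCGGAA and TGACG 2 times each. At least 1 match to them was held in the same positions by 6.28% and 7.68% of promoters, and the share with 2 was not counted. None of the 4 motifs occurred in the SRD5A1 stretch, which had 80.4% G and C. No test of the motifs against fold changes was made.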

How the data were processed

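The authors deposited whole-number read counts per gene and a second table with a TPM-like score; per the submitters' processing notes fastp 0.23.0, HISAT2, HTSeq 2.0.1 and the build GRCh38 were used, with no role given. The score, a deposited value per gene length and library size, sums to 1000000 per library when each name is taken once; the 62710 lines of the table repeat some names with the same values. Each of the 60835 names was used once. The annotation release and strand setting are not given in the sources used here.

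Genes were kept with filterByExpr (minimum count 10), which left 15346 genes and at least 99.76% of the counts of each library. edgeR 4.0.16 (R 4.3.3) supplied the tests (TMM, glmQLFit, glmQLFTest, no covariates) with Benjamini-Hochberg adjustment over all genes tested and a threshold of 0.05. The SE is the log2 fold change over the square root of F. Single values were compared by exact two-sided permutation. The fit was tested on simulated counts.

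Alternatives were DESeq2 1.42.0 size factors and its Wald test, upper-quartile and no composition factors, no filter, at least 1 CPM in 3 libraries, limma 3.58.1 with voom, limma on log2 of the score plus 1 or 0.1, a threshold of 0.01, a block for the replicate number, and the omission of each library in turn.

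The 10 genes and all lists were chosen with earlier results of these data known. Named were CCNL2, the 10 genes, every gene of lists of up to 6, up to 2 called genes per direction with the largest fold changes in longer lists, and genes that overlap the 10 or are their pseudogene copies; others are marked as named after their values were seen. Exon sharing and UTRs are from GENCODE 29, promoters from RefSeq (GRCh38.p14). Protein sequences were not used here. Precision follows the counts: SEs and intervals cover these libraries only.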

Additional observations from a re-analysis of the deposited data

How the results depend on the processing

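CCNL2 and TRDMT1 were called lower in all 17 alternatives, and the 6 genes NOP2, NSUN2, NSUN4, NSUN5, NSUN6 and YBX1 were called in none; NSUN7 was called in none of 16 and gave no value with a filter of 1 CPM in 3 libraries. Of the 10 genes, 0 were called higher and 1 lower in the DESeq2 Wald test and in both fits to the log2 score (pseudocount 1 or 0.1), and 1 lower at a threshold of 0.01. Leaving out each library gave 0 to 1 called higher and 1 to 2 called lower. The log2 fold change of NSUN6 turned to -0.0117 with upper-quartile factors, -0.0057 with the score plus 1 and -0.0063 with the score plus 0.1, and ranged from -0.0310 to 0.0859 when each library was left out; that of YBX1 then ranged from -0.0280 to 0.0116. The cause of these shifts was not tested. Over all genes, calls ran from 1869 higher and 1743 lower at the threshold of 0.01 to 2673 higher and 2561 lower in the fit that blocked on the replicate number, and to 2368 higher and 2783 lower with upper-quartile factors. The median log2 fold change of all genes stayed between -0.0161 and 0.0123. Libraries with the same replicate number correlated by 0.043, 0.023 and 0.026 in their deviations from the group means, so the number was not taken to pair them, although each library correlated best with its own number. The replicate block changed no call among the 10 genes (1 higher, 2 lower; ALYREF adjusted p = 0.00199). Depth limited NSUN7 and NOP2, with 9 to 35 counts per library.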
